A study of Mus musculus with 8 samples.

Results

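Heme is broken down by heme oxygenase, and the iron it held is then stored, exported or used again. The 9 genes described here cover that route and its control: the heme oxygenases Hmox1 and Hmox2, the biliverdin reductases Blvra and Blvrb, the ferritin chains Fth1 and Ftl1, the transferrin receptor Tfrc and the iron regulatory proteins Ireb2 (IRP2) and Aco1 (IRP1). They were chosen by gene symbol for these known roles, with earlier results of these data known. All 9 were among the 23413 genes of the deposited table, and all 9 were among the 11415 genes with enough counts to be tested.

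RNA was sequenced from 8 mouse libraries: repopulating microglia (n = 3), bone-marrow macrophages (n = 3) and wild-type microglia (n = 2). Microglia are macrophages that live in the brain, and the study, by its title, concerns interleukin-1 signalling in how they renew. Per the labels' protocols, 2 mg tamoxifen was injected subcutaneously on postnatal days 12 and 14, and microglia were depleted with 3 injections of 500 ng diphtheria toxin into the abdomen. Brain cells were freed with papain, enriched on Percoll and sorted. All 8 samples, those of wild type too, carry this one protocol. Repopulating microglia and bone-marrow macrophages carry the strain label DTRmg and wild-type microglia the label DTR, so strain label and group cannot be told apart in either comparison with wild type. The sources used here do not give the age at collection, the cells that carry the toxin receptor or the tissue the bone-marrow macrophages were sorted from. Titles of the bone-marrow macrophage samples read bm_micro, and their columns, named mono, were assigned to them by exclusion. The labels do not say whether replicates are separate animals, so each p-value reflects the spread of these samples alone, and that spread may be technical.

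Heme oxygenase opens the heme ring and releases iron, carbon monoxide and biliverdin, which biliverdin reductase turns into bilirubin. Free iron is held in ferritin, a hollow shell of heavy chains that oxidise iron and light chains that help it to mineralise. When iron is scarce, iron regulatory proteins bind hairpins in messenger RNA called iron-responsive elements, which blocks translation of ferritin and stabilises the transcript of the transferrin receptor. Macrophages carry much of this traffic in the body because they take up dying red cells. Message levels, as measured here, do not show that translational step.

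The hairpin letters are shown because they separate the genes by the side of the transcript on which this control acts. A pattern of C, 5 stem bases, the loop CAGTGN and 5 bases that pair with the stem (G-T pairs allowed, transcript strand only) was searched in the untranslated regions of GENCODE vM21 transcripts. It was found in 175 of 22500 protein-coding genes (0.778%), in a 5′ region of 31 (0.138%) and a 3′ region of 144 (0.64%). Of the 9 genes, 3 held it: Fth1 and Ftl1 in the 5′ untranslated region and Tfrc at 4 places in the 3′ untranslated region. The iron exporter Slc40a1, described further on, holds it in its 5′ region. A match is a description of letters, not evidence of binding. The windows of 30 bases follow in 5′ to 3′ order on the transcript strand, GRCm38 coordinates, with the 6 loop bases in capitals.
Fth1, chr19:9982731-9982760, plus strand: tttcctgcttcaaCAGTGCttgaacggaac
Ftl1, chr7:45459779-45459808, minus strand: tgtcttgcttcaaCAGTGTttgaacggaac
Slc40a1, chr1:45925465-45925494, minus strand: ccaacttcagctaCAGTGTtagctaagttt
Tfrc 1, chr16:32631218-32631247, plus strand: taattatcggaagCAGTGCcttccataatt
Tfrc 2, chr16:32631597-32631626, plus strand: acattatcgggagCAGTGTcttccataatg
Tfrc 3, chr16:32631662-32631691, plus strand: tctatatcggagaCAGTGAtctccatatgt
Tfrc 4, chr16:32631709-32631738, plus strand: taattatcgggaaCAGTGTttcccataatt
The Fth1 and Ftl1 windows were identical at 27 of 30 bases. Those of Fth1 and Slc40a1 matched at 13 of 30, and the 4 Tfrc windows matched one another at 18 to 25 of 30.

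Total reads counted in genes ran from 5918944 to 9523997 in repopulating microglia, 6853696 to 12476427 in bone-marrow macrophages and 7600939 to 7635322 in wild-type microglia. Repopulating replicate 3 stood apart from the other 2 repopulating libraries. Its ribosomal protein genes took 6.59% of reads, against 9.98% and 10.2% in replicates 1 and 2, 9.23% to 9.68% in bone-marrow macrophages, and 5.34% and 4.65% in wild-type microglia. Calls of named genes that change without it are given with and without it. Summed over 8 microglial markers, the normalised counts were 275780 to 331650 in repopulating microglia, 124530 to 135490 in bone-marrow macrophages and 426550 to 449180 in wild-type microglia. Summed over 5 border macrophage markers they were 324 to 934, 5270 to 6457 and 354 to 607 in the same order of groups, most of it Mrc1 and Pf4. Of these 5, 2 were called higher and 0 lower in bone-marrow macrophages than in wild-type microglia. Lyve1 and Cd163 were not among those 2. Of 5 monocyte markers 4 were in the table, and they summed to 259 to 676 in repopulating microglia, 1071 to 1651 in bone-marrow macrophages and 3160 to 5403 in wild-type microglia. All 4 were called lower in repopulating than in wild-type microglia, and 3 of the 4 were lower in bone-marrow macrophages than in wild type. The exception was Ccr2, called neither higher nor lower in that comparison. Bone-marrow macrophage libraries 1 to 3 held 1386, 1195 and 917 of it after normalisation, beside 911 and 949 for the wild-type pair. Ccr2 made up most of the sum in each bone-marrow macrophage library. Summed over 5 endothelial markers the counts were 83.1 to 400 in repopulating microglia, 52.3 to 71.1 in bone-marrow macrophages and 401 to 602 in wild-type microglia. Of these 5, 3 were called lower in bone-marrow macrophages than in wild type, and 4 higher in repopulating microglia than in bone-marrow macrophages. Sums of 5 astrocyte markers were 217 to 2003, 48.3 to 68.9 and 1024 to 6407 in the same order, with Slc1a3 at 6365 in wild-type replicate 2. The part of these marker differences in the results below was not tested. Of 8 red-cell lineage markers 6 were in the table, and they summed to at most 9.44 in any library, with Hba-a1 and Hba-a2 listed at 0 in all 8. Reads of near-identical copies such as the alpha-globin pair are uncertain.

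By number of calls, the set differed most between bone-marrow macrophages and wild-type microglia, as did all genes tested. Tests were made with limma over all genes, and a call is a Benjamini-Hochberg adjusted p under 0.05. Against wild-type microglia, repopulating microglia had 1 call among the 9 genes, Ftl1, which was higher, where 8.61% of all genes tested were called, with 4.86% called higher. In bone-marrow macrophages against wild-type microglia 6 were called, 5 higher and 1 lower, where 43.5% of all genes were, with 21.3% higher and 22.2% lower. In repopulating microglia against bone-marrow macrophages 3 were called, 1 higher and 2 lower, where 30.9% of all genes were, with 16.0% higher and 14.9% lower. The called shares of the 9 were thus 11.1%, 66.7% and 33.3%, in the same order as the 8.61%, 43.5% and 30.9% of all genes. The median log2 fold of the 9 was 0.13, 0.91 and -0.25 in these comparisons, and that of all genes tested was -0.02, -0.01 and 0.00. Groups did not overlap for 4 of the 9 genes in the first comparison, 7 in the second and 5 in the third, where 40.4%, 75.8% and 46.0% of all genes did not. Without repopulating replicate 3 the first comparison had 4 calls among the 9, all higher, where 26.2% of all genes were called, 15.0% higher. The comparisons share libraries and are not independent. Libraries scaled to equal totals moved the median of all genes to -0.13, 0.14 and -0.25, and the split of all calls became 440 higher and 729 lower, 3007 higher and 2068 lower, and 1169 higher and 2934 lower. With the authors' size factors that split was 555 higher and 428 lower, 2428 higher and 2532 lower, and 1826 higher and 1700 lower.

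**Figure D1:**
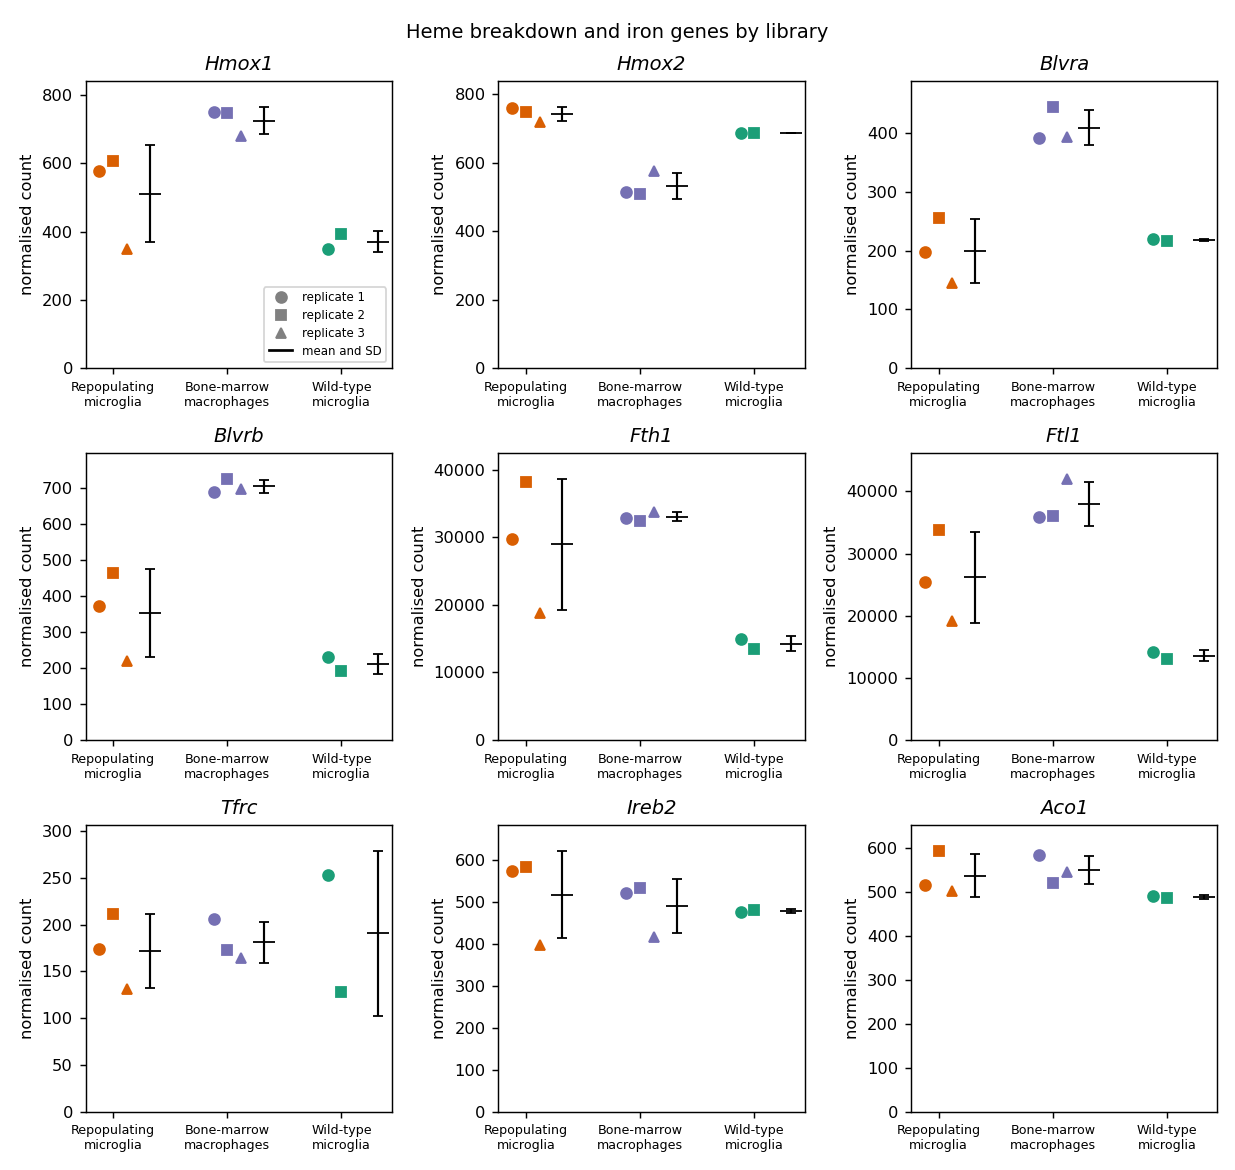
Normalised counts of the 9 genes in each of the 8 libraries (vertical axis, from 0). Marker shape gives the replicate, and the bar beside each group gives its mean and SD. Fth1 ran from 18853 to 38166 in repopulating microglia, from 32439.6 to 33705 in bone-marrow macrophages and from 13436 to 14999 in wild-type microglia, while Aco1 lay between 485 and 593 in all 8 libraries.

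Hmox1, the inducible heme oxygenase (GRCm38 chromosome 8, 75093621 to 75100589, plus strand), was highest in bone-marrow macrophages. Its values were 579, 607 and 349 normalised counts in repopulating microglia 1 to 3, at 749.6, 747 and 679.9 in bone-marrow macrophages 1 to 3, and at 349 and 392 in wild-type microglia 1 and 2. Every bone-marrow macrophage library lay above every other library, repopulating replicates 1 and 2 lay between, and replicate 3 lay level with the lower wild-type library. Hmox1 rose by 0.97 ± 0.23 on the log2 scale (SE) in bone-marrow macrophages against wild-type microglia (limma adjusted p = 0.00959), with means of 725 ± 39.4 (SD, n = 3) and 371 ± 30.45 (SD, n = 2). That call ended without wild-type replicate 1 (log2 0.88, adjusted p = 0.0754, the highest of a range from 1.14e-05). Between repopulating and wild-type microglia the log2 fold was 0.42 ± 0.23 (limma adjusted p = 0.274). Without repopulating replicate 3 it was 0.68 and passed, with an adjusted p of 0.00154, the lowest of a range up to 0.654.

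Between repopulating microglia and bone-marrow macrophages the log2 fold of Hmox1 was -0.54 ± 0.21 (limma adjusted p = 0.0763). This comparison passed without repopulating replicate 2 (log2 -0.69, adjusted p = 0.0385), without replicate 3 (-0.29, 0.0477) and with libraries scaled to equal totals (-0.80, 0.00959), and its adjusted p ran up to 0.193 over the settings tried. Samples are sorted cells in bulk, so fewer cells of a type and less RNA per cell cannot be told apart here or in the values that follow.

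Hmox2, the constitutive heme oxygenase (chromosome 16, 4726361 to 4766742, plus strand), was lowest where Hmox1 was highest. Normalised counts were 759, 748 and 719.9 in repopulating microglia, 514, 509 and 578 in bone-marrow macrophages and 687 and 686 in wild-type microglia. No group overlapped another. Hmox2 rose by 0.48 ± 0.11 (SE) in repopulating microglia against bone-marrow macrophages (limma adjusted p = 0.0104), with means of 742.5 ± 20.4 and 533 ± 38.3 (SD, n = 3 each). It fell by 0.37 ± 0.12 in bone-marrow macrophages against wild-type microglia (limma adjusted p = 0.0376), where the wild-type mean was 687 ± 0.52 (SD, n = 2). Relative to wild type, in repopulating microglia its log2 fold was 0.11 ± 0.12 (limma adjusted p = 0.586, 95% interval -0.16 to 0.39).

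Both Hmox2 calls were sensitive to scaling. At equal totals they became 0.23 (adjusted p = 0.136, in a range of 0.000405 to 0.136) against bone-marrow macrophages and -0.22 (0.163, in a range of 0.00998 to 0.163) for bone-marrow macrophages against wild type. The first also ended without bone-marrow macrophage replicate 1 (0.45, adjusted p = 0.0589). The second also ended with TMM scaling (-0.27, adjusted p = 0.1), with edgeR (-0.30, 0.0767) and without a variance trend (-0.37, 0.0632). Of the libraries left out, it ended without bone-marrow macrophage replicate 1 or 2 (adjusted p = 0.126 and 0.11), wild-type replicate 1 or 2 (0.149 and 0.144) or repopulating replicate 1 (0.0533). The locus of Hmox2 overlaps Cdip1 on the opposite strand, and reads of both cannot be told apart because the library kit does not mark strand. Cdip1 averaged 489 normalised counts in repopulating microglia, 287.5 in bone-marrow macrophages and 588 in wild-type microglia. Like Hmox2 it was lowest in bone-marrow macrophages, and its part in the Hmox2 values was not tested.

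Set side by side within each library, the oxygenases differed in balance between bone-marrow macrophages and both microglial groups. The ratio of Hmox1 to Hmox2 counts was 0.762, 0.811 and 0.485 in repopulating microglia, 1.46, 1.47 and 1.18 in bone-marrow macrophages and 0.509 and 0.572 in wild-type microglia. It was above 1 in every bone-marrow macrophage library and below 1 in every microglial library. The log2 ratio differed by -1.02 between repopulating microglia and bone-marrow macrophages and by 1.33 between bone-marrow macrophages and wild-type microglia. Two-sided exact permutation tests gave p = 0.1 and 0.2, the smallest these group sizes allow, and 0.375 for both after adjustment over 15 ratio comparisons. Repopulating and wild-type microglia overlapped, with a log2 difference of 0.31 (two-sided exact permutation p = 0.6, and 0.75 adjusted). A ratio of counts between genes still carries their lengths, so 1 does not mark equal numbers of transcripts. Per kilobase of exon, Hmox1 averaged 292, 414 and 212 normalised counts and Hmox2 335, 241 and 309.7 in repopulating microglia, bone-marrow macrophages and wild-type microglia.

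Blvra, which reduces biliverdin to bilirubin (chromosome 2, 127070665 to 127097084, plus strand), was also highest in bone-marrow macrophages. Its values were 198, 255 and 145 normalised counts in repopulating microglia, at 391, 444 and 393 in bone-marrow macrophages and at 219 and 217 in wild-type microglia. The bone-marrow macrophages lay above all microglial libraries, and repopulating microglia spread to both sides of wild type. Blvra fell by 1.07 ± 0.20 on the log2 scale (SE) in repopulating microglia against bone-marrow macrophages (limma adjusted p = 0.00396), with means of 199.6 ± 55.1 and 409.55 ± 30.2 (SD, n = 3 each). It rose by 0.91 ± 0.22 in bone-marrow macrophages against wild-type microglia (limma adjusted p = 0.0111). The second call was lost when wild-type replicate 1 (adjusted p = 0.0644) or 2 (0.0647) was left out, the highest of a range from 4.9e-05. In repopulating microglia against wild type the log2 fold was -0.16 ± 0.22 (limma adjusted p = 0.672, 95% interval -0.67 to 0.34), and it turned to 0.047 without repopulating replicate 3.

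Blvrb, which reduces flavins and the beta isomer of biliverdin (chromosome 7, 27447978 to 27466144, plus strand), had the widest difference of the 9 genes. Normalised counts were 372, 463 and 220.0 in repopulating microglia, 689, 724 and 698 in bone-marrow macrophages and 231 and 192 in wild-type microglia. Repopulating replicates 1 and 2 lay between the other groups, and replicate 3 lay among the wild-type libraries. Blvrb rose by 1.74 ± 0.27 (SE), 3.33-fold, in bone-marrow macrophages against wild-type microglia (limma adjusted p = 0.00135), with means of 704 ± 18.6 (SD, n = 3) and 211 ± 27.3 (SD, n = 2). It fell by 1.06 ± 0.25 in repopulating microglia against bone-marrow macrophages (limma adjusted p = 0.0111). These 2 calls held in all 19 other settings tried, with adjusted p up to 0.0182 and 0.0438. Between repopulating and wild-type microglia the log2 fold was 0.67 ± 0.27 (limma adjusted p = 0.162), and without repopulating replicate 3 it was 0.98 (adjusted p = 0.000409, in a range of 0.000409 to 0.464).

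Counts of the reductases were near parity in wild-type microglia and not in the other groups. The ratio of Blvra to Blvrb counts was 0.533, 0.551 and 0.660 in repopulating microglia, 0.568, 0.614 and 0.564 in bone-marrow macrophages and 0.949 and 1.13 in wild-type microglia. All 3 repopulating libraries, replicate 3 included, spanned the bone-marrow macrophage range and lay below both wild-type libraries. The log2 ratio differed from wild type by -0.83 in repopulating microglia and by -0.83 in bone-marrow macrophages (two-sided exact permutation p = 0.2 each, the smallest that 3 against 2 allows, and 0.375 adjusted over 15). Between repopulating microglia and bone-marrow macrophages the difference was 0.00, with an exact permutation p of 1 and an adjusted p of 1.

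Ferritin messages were the most abundant of the set, and every library of the other populations lay above the wild-type pair. Fth1, the heavy chain (chromosome 19, 9980598 to 9985098, plus strand), stood at 29781, 38166 and 18853 normalised counts in repopulating microglia, at 32896, 32439.6 and 33705 in bone-marrow macrophages and at 14999 and 13436 in wild-type microglia. Every repopulating library lay above both wild-type libraries, and replicates 1, 2 and 3 were 2.095, 2.68 and 1.33 times the wild-type mean. The bone-marrow macrophages agreed closely, and repopulating replicate 2 lay above and replicates 1 and 3 below them. Fth1 rose by 1.22 ± 0.27 on the log2 scale (SE) in bone-marrow macrophages against wild-type microglia (limma adjusted p = 0.00664), with means of 33014 ± 641 (SD, n = 3) and 14217 ± 1105 (SD, n = 2). This call ended without wild-type replicate 2 (log2 1.138, adjusted p = 0.0558, in a range of 2.96e-06 to 0.0558).

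In repopulating microglia, with a mean of 28933 ± 9685 (SD, n = 3), the log2 fold of Fth1 over wild type was 0.97 ± 0.27 and just missed the threshold (limma adjusted p = 0.0588). Without repopulating replicate 3 it was 1.25 and passed (adjusted p = 5.93e-05, in a range of 5.93e-05 to 0.258), and it also passed at equal totals (0.0486), with edgeR (0.0427) and with DESeq2 (0.0028). Against bone-marrow macrophages the log2 fold was -0.25 ± 0.24 (limma adjusted p = 0.472, 95% interval -0.79 to 0.29), and it turned to 0.030 without repopulating replicate 3.

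Ftl1, the light chain (chromosome 7, 45457944 to 45459884, minus strand), stood at 25469, 33838 and 19161 normalised counts in repopulating microglia, at 35869, 36020.1 and 42015 in bone-marrow macrophages and at 14157 and 12973 in wild-type microglia. The 3 groups did not overlap, with bone-marrow macrophages highest and wild-type microglia lowest. Ftl1 rose by 1.48 ± 0.24 on the log2 scale (SE), 2.79-fold, in bone-marrow macrophages against wild-type microglia (limma adjusted p = 0.00136), with means of 37968 ± 3505 (SD, n = 3) and 13565 ± 837 (SD, n = 2). That call held in all 19 other settings, with adjusted p up to 0.0182. In repopulating microglia, with a mean of 26156 ± 7362 (SD, n = 3), Ftl1 rose by 0.91 ± 0.24 over wild type, or 1.88-fold (limma adjusted p = 0.048).

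The Ftl1 call in repopulating microglia lies close to the threshold. Leaving out any library but repopulating replicate 3 ended it, with adjusted p = 0.0904, 0.0894 and 0.0842 without bone-marrow macrophages 1 to 3, 0.106 and 0.072 without repopulating microglia 1 and 2, and 0.234 and 0.23 without wild-type microglia 1 and 2. It also ended with no filter on low counts (0.086), with only the 2 groups compared (0.166) and without a variance trend (0.0684). Without repopulating replicate 3 the log2 fold was 1.115 and the adjusted p 0.000274, the low end of the range of 0.000274 to 0.234. Against bone-marrow macrophages the log2 fold was -0.57 ± 0.21 (limma adjusted p = 0.07). That passed without repopulating replicate 2 (-0.78, adjusted p = 0.014), at equal totals (-0.82, 0.00782), with TMM scaling (-0.64, 0.0462) and with DESeq2 (-0.54, 0.0416), and its adjusted p ran up to 0.206.

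**Figure D2:**
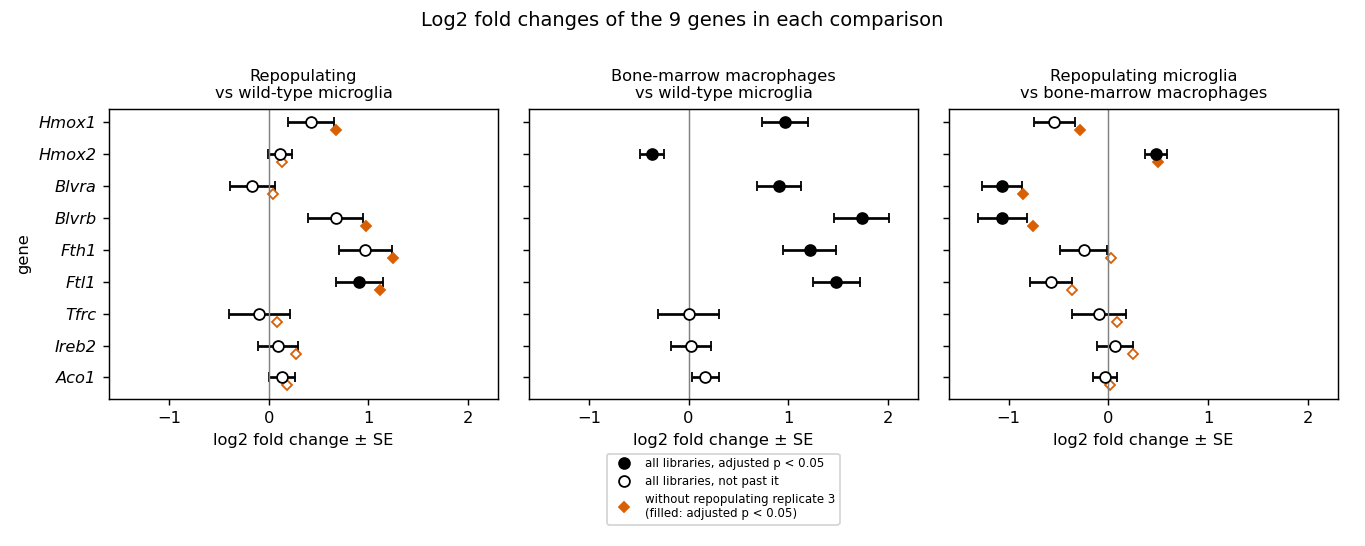
Log2 fold changes of the 9 genes in each comparison (horizontal axis, bars SE), filled where the limma adjusted p was under 0.05. Diamonds give the fit without repopulating replicate 3, in which Hmox1, Blvrb, Fth1 and Ftl1 all passed against wild-type microglia.

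Together the ferritin chains took 0.614%, 0.824% and 0.475% of reads in repopulating microglia, 0.970%, 0.942% and 1.05% in bone-marrow macrophages and 0.357% and 0.342% in wild-type microglia. The Wilson 95% interval of the lowest repopulating share, 0.470% to 0.480%, lay above that of the higher wild-type share, 0.353% to 0.362%. These intervals cover counting error only. Per kilobase of exon, Ftl1 averaged 19520, 28330 and 10120 normalised counts in repopulating microglia, bone-marrow macrophages and wild-type microglia, which ranked it at 16, 9 and 31 of 10757 genes. Fth1 averaged 8341, 9517 and 4098 per kilobase, at ranks 50, 31 and 80. The exons of Fth1 join to 3469 bases and those of Ftl1 to 1340 over all annotated transcripts, so the level per length depends on which transcripts the cells make. Ferritin also has near-identical copies elsewhere in the genome. GENCODE lists 12 genes whose name starts with Fth and 4 with Ftl, of which the table holds Fth1, Ftl1 and Fthl17, the last listed at 0 in all 8 libraries. The sources used here do not say how the authors' counting placed reads shared with such copies.

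The chains stayed near each other in counts. The ratio of Fth1 to Ftl1 counts was 1.17, 1.13 and 0.984 in repopulating microglia, 0.917, 0.901 and 0.802 in bone-marrow macrophages and 1.06 and 1.04 in wild-type microglia. The bone-marrow macrophages were lowest and overlapped neither other group. Their log2 ratio differed by -0.26 from wild-type microglia, and that of repopulating microglia differed by 0.32 from bone-marrow macrophages (two-sided exact permutation p = 0.2 and 0.1, and 0.375 for both adjusted over 15). For all 9 genes repopulating replicate 3 was the lowest of its group, and it also had the lowest ribosomal protein share of the 3. The part of that difference between libraries in these results was not tested.

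Tfrc, the receptor that brings transferrin-bound iron into the cell (chromosome 16, 32608920 to 32632794, plus strand), was scarce and had no call. Its values were 174, 211 and 131 normalised counts in repopulating microglia, at 206, 173 and 164 in bone-marrow macrophages and at 253 and 128 in wild-type microglia. The wild-type libraries held both the lowest and the highest of the 8 values, so the groups overlapped. The log2 fold was -0.09 ± 0.30 in repopulating and 0.00 ± 0.30 in bone-marrow macrophages against wild-type microglia (limma adjusted p = 0.87 and 1). The 95% intervals, -0.78 to 0.60 and -0.69 to 0.69, leave room for a change of either sign, and the sign turned with the library left out.

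The ratio of Tfrc to Fth1 counts sets the receptor beside the store. It was 0.00584, 0.00553 and 0.00697 in repopulating microglia, 0.00627, 0.00533 and 0.00487 in bone-marrow macrophages and 0.0169 and 0.00954 in wild-type microglia. Both wild-type libraries lay above the other 6. The log2 ratio differed from wild type by -1.06 in repopulating microglia and by -1.22 in bone-marrow macrophages (two-sided exact permutation p = 0.2 each, and 0.375 adjusted over 15). Tfrc itself had no call, while Fth1 was called in bone-marrow macrophages against wild type.

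**Figure D3:**
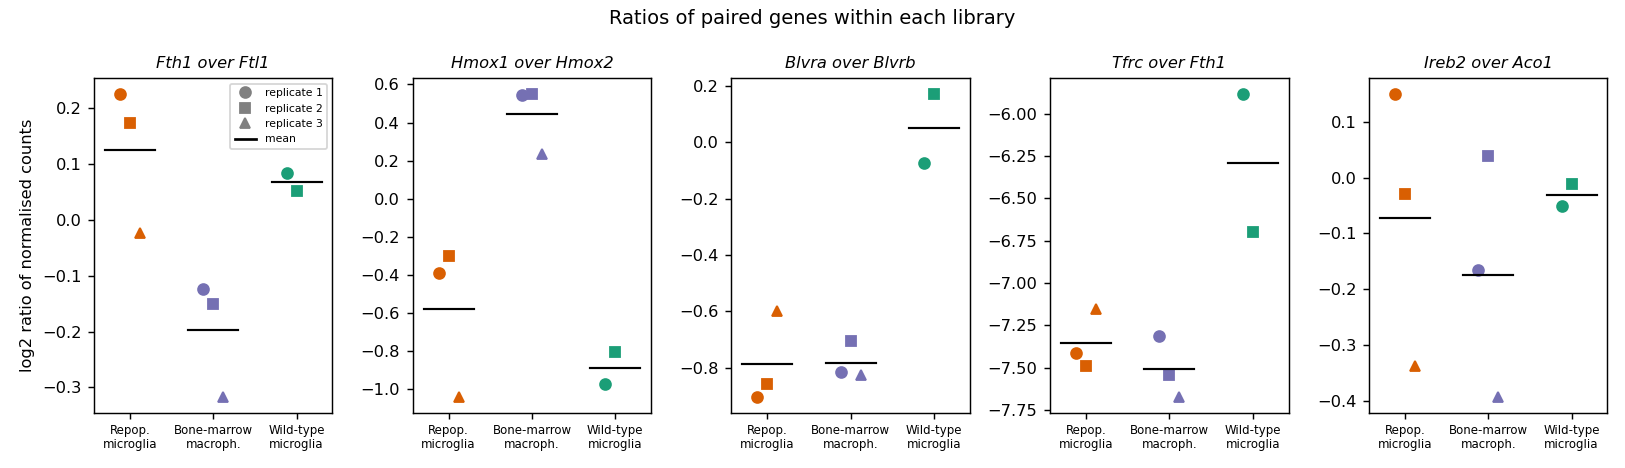
Log2 ratios of normalised counts of paired genes within each library (vertical axes differ between panels), with the group mean as a line. Hmox1 over Hmox2 was above 0 in bone-marrow macrophages alone, and Blvra over Blvrb lay lower in all 6 repopulating and bone-marrow libraries than in the wild-type pair.

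The iron regulatory proteins did not pass in any comparison. Ireb2, which is degraded when iron is plentiful (chromosome 9, 54863789 to 54912530, plus strand), stood at 572, 581 and 396 normalised counts in repopulating microglia, at 520.0, 533 and 415 in bone-marrow macrophages and at 474 and 481 in wild-type microglia. Aco1, a cytosolic aconitase that binds RNA when it loses its iron-sulphur cluster (chromosome 4, 40143081 to 40198338, plus strand), stood at 516, 593 and 501, at 583, 519.7 and 546, and at 492 and 485 in the same order of groups. Repopulating and bone-marrow libraries lay on both sides of wild type for Ireb2, while for Aco1 all of them lay slightly above it. The log2 folds of Ireb2 over wild type were 0.09 ± 0.20 in repopulating microglia and 0.03 ± 0.20 in bone-marrow macrophages (limma adjusted p = 0.799 and 0.923). Those of Aco1 were 0.13 ± 0.13 and 0.17 ± 0.13 (limma adjusted p = 0.554 and 0.325), with 95% intervals of -0.17 to 0.43 and -0.13 to 0.47. Between repopulating microglia and bone-marrow macrophages the folds were 0.06 ± 0.18 and -0.04 ± 0.12 (limma adjusted p = 0.814 and 0.846). The ratio of Ireb2 to Aco1 counts averaged 0.960 ± 0.161 in repopulating microglia and 0.893 ± 0.133 in bone-marrow macrophages (SD, n = 3 each) and 0.978 ± 0.019 in wild-type microglia (SD, n = 2).

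Genes around these 9 were taken from a list of 58 other heme and iron genes, of which 56 were in the table and 50 were tested. Relative to wild type, in repopulating microglia none of the 50 was called higher and 4 were called lower, namely Hp, Lcn2, Slc40a1 and Abcg2. That is 8.0% of the list, near the 8.61% of all genes called there, of which 3.75% were lower. In bone-marrow macrophages against wild-type microglia 10 were higher and 17 lower, or 54.0% of the list beside 43.5% of all genes. For repopulating microglia against bone-marrow macrophages 14 were higher and 8 lower, or 44.0% beside 30.9%. The median log2 folds of the list were -0.10, -0.24 and 0.05, and those of all genes were -0.02, -0.01 and 0.00. At equal totals the last split became 12 higher and 14 lower. Without repopulating replicate 3 the first comparison gave 5 higher and 13 lower, where 15.0% of all genes were higher and 11.2% lower.

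Slc40a1, or ferroportin, the exporter of iron from cells, was graded across the groups. Its values were 1402, 1165 and 1333 normalised counts in repopulating microglia, at 189, 303 and 225 in bone-marrow macrophages and at 2621 and 2200.2 in wild-type microglia. The groups did not overlap, and repopulating replicate 3 lay between the other 2 of its group. Slc40a1 rose by 2.46 ± 0.18 on the log2 scale (SE) in repopulating microglia against bone-marrow macrophages (limma adjusted p = 3.98e-05) and fell by 3.35 ± 0.20 in bone-marrow macrophages against wild-type microglia (limma adjusted p = 1.64e-05). It fell by 0.89 ± 0.20 in repopulating against wild-type microglia (limma adjusted p = 0.0322), in the direction opposite to ferritin. The last call was lost when wild-type replicate 1 (adjusted p = 0.259) or 2 (0.119) was left out, or repopulating replicate 1 (0.0682) or 2 (0.0653) or bone-marrow macrophage replicate 3 (0.0658). It also ended with only the 2 groups compared (0.083) and without a variance trend (0.0611), in a range of 0.00149 to 0.259. Ceruloplasmin, or Cp, the ferroxidase that works with ferroportin, was highest where Slc40a1 was lowest. Cp had 194, 207 and 43.8 normalised counts in repopulating microglia, 989.9, 1683 and 1118 in bone-marrow macrophages and 52.4 and 59.0 in wild-type microglia. Cp rose by 4.44 ± 0.59 in bone-marrow macrophages relative to wild-type microglia and fell by 3.34 ± 0.53 in repopulating microglia against bone-marrow macrophages (limma adjusted p = 0.000539 and 0.00169). Without repopulating replicate 3 the second fold was -2.62 (adjusted p = 5.87e-07, in a range of 3.75e-10 to 0.0108). Between repopulating and wild-type microglia the log2 fold of Cp was 1.11 ± 0.59 (limma adjusted p = 0.267), and without replicate 3 it was 1.83 and passed (adjusted p = 5.91e-05, in a range of 5.91e-05 to 0.607).

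Most of the 10 tested genes of iron uptake and transport were lower in bone-marrow macrophages than in either microglial group. Of 10 genes of iron uptake and transport, 1 was higher and 7 were lower in bone-marrow macrophages relative to wild-type microglia, where 21.3% of all genes were higher and 22.2% lower. Among the same 10 genes, 6 were higher and 1 was lower in repopulating microglia against bone-marrow macrophages, where 16.0% of all genes were higher and 14.9% lower. Lcn2, also known from neutrophil granules, is counted in both comparisons. Of 6 neutrophil markers, 4 were called higher and 0 lower in repopulating microglia against bone-marrow macrophages, and their part in these counts was not tested. Of 7 tested genes of heme uptake and transport, 1 was higher and 3 were lower in bone-marrow macrophages relative to wild type, and 2 were higher and none lower in repopulating microglia against bone-marrow macrophages. These are 57.1% and 28.6% of that list, beside 43.5% and 30.9% of all genes. Slc11a1, which moves iron out of the phagosome, averaged 4625 ± 672 and 2045 ± 97.7 normalised counts in repopulating microglia and bone-marrow macrophages (SD, n = 3 each) and 3382 ± 452.5 in wild-type microglia (SD, n = 2). Its log2 folds were 1.17 ± 0.14 in repopulating microglia against bone-marrow macrophages and -0.72 ± 0.16 in bone-marrow macrophages against wild-type microglia (limma adjusted p = 0.000443 and 0.0068), the second of which ended without wild-type replicate 1 (0.0744, in a range of 0.000122 to 0.0744). In repopulating microglia against wild type it was 0.45 ± 0.16 (limma adjusted p = 0.117), and it passed without repopulating replicate 3 (0.56, adjusted p = 0.00496, in a range of 0.00496 to 0.451). Slc46a1, a folate carrier that also takes up heme, and Abcg2, an exporter of heme and other compounds, rose by 1.89 ± 0.13 and 1.92 ± 0.16 in repopulating microglia against bone-marrow macrophages (limma adjusted p = 3.26e-05 and 5.67e-05). Between repopulating and wild-type microglia the log2 fold of Slc46a1 was -0.40 ± 0.15 (limma adjusted p = 0.121), and it just passed without repopulating replicate 3 and at equal totals (-0.40 and -0.51, adjusted p = 0.0498 for both, in a range of 0.0498 to 0.513).

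Abcg2 fell by 0.74 ± 0.18 in repopulating against wild-type microglia (limma adjusted p = 0.0353). That call ended without wild-type replicate 1 (0.259) or 2 (0.144), repopulating replicate 1 (0.054) or 2 (0.0692), or bone-marrow macrophage replicate 1 (0.0746) or 3 (0.0539), and also with only the 2 groups compared (0.113) and without a variance trend (0.0564), in a range of 0.00212 to 0.259. Lrp1, the receptor for heme bound to hemopexin, rose by 1.65 ± 0.51 in bone-marrow macrophages against wild-type microglia (limma adjusted p = 0.0282). Its values were 4745, 3359 and 14647 in repopulating microglia, at 7235, 7807 and 7756 in bone-marrow macrophages and at 2095 and 2803 in wild-type microglia, and repopulating replicate 3 was the highest of all. The Lrp1 call ended without bone-marrow macrophage replicate 1, 2 or 3 (adjusted p = 0.0632, 0.0715 and 0.0746) or wild-type replicate 1 or 2 (0.16 and 0.0827), in a range of 4.53e-07 to 0.16. In repopulating microglia the log2 fold of Lrp1 was 1.35 ± 0.51 over wild type and -0.30 ± 0.45 over bone-marrow macrophages (limma adjusted p = 0.135 and 0.654). Both passed without repopulating replicate 3, at 0.72 (adjusted p = 0.0078, in a range of 0.0078 to 0.495) and -0.93 (0.000342, in a range of 0.000342 to 0.998). The fold over wild type also passed without replicate 2 (1.78, adjusted p = 0.0474) and with DESeq2 (1.63, 0.0135).

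Hp, or haptoglobin, which binds free haemoglobin, and Lcn2, which binds bacterial iron carriers, were far lower in both other groups than in wild-type microglia. Hp stood at 36.8, 36.9 and 26.5 normalised counts in repopulating microglia, at 74.4, 43.5 and 39.7 in bone-marrow macrophages and at 505 and 496 in wild-type microglia. Lcn2 stood at 141, 146 and 107, at 86.9, 50.9 and 68.8, and at 1233 and 1413 in the same order. Between repopulating and wild-type microglia Hp fell by 3.88 ± 0.30 and Lcn2 by 3.33 ± 0.24 (limma adjusted p = 0.000655 and 0.000557), and in bone-marrow macrophages against wild-type microglia they fell by 3.29 ± 0.30 and 4.27 ± 0.24 (limma adjusted p = 7.56e-05 and 1.34e-05). Both genes are also known from neutrophil granules. All 6 of 6 neutrophil markers were called lower in both comparisons with wild type, and their summed normalised counts were 1573 to 2961 in repopulating microglia, 747 to 1249 in bone-marrow macrophages and 25221 to 27287 in wild-type microglia. Their part in the Hp and Lcn2 values was not tested.

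Of 6 regulators in the heme and iron list, Bach1 and Nfe2l2 were called in both comparisons with bone-marrow macrophages, and Keap1, Mafk, Mafg and Spic in neither. That is 33.3% of these 6, beside 43.5% of all genes called for bone-marrow macrophages over wild type and 30.9% for repopulating microglia over bone-marrow macrophages. Spic passed for bone-marrow macrophages against wild type without repopulating replicate 3 (log2 2.12, limma adjusted p = 0.0186), against 0.126 with all libraries. Its normalised counts were low, at 19.3, 35.0 and 6.17 in bone-marrow macrophages 1 to 3 and 4.27 and 2.03 in wild-type microglia. Bach1, a repressor that heme releases from DNA, averaged 1204 ± 60.9 and 713 ± 94.2 normalised counts in repopulating microglia and bone-marrow macrophages (SD, n = 3 each) and 1289 ± 36.55 in wild-type microglia (SD, n = 2). Nfe2l2, or NRF2, an activator of the same targets, averaged 1718 ± 163, 2554 ± 22.3 and 1664 ± 0.54 in the same order. In bone-marrow macrophages against wild-type microglia Bach1 fell by 0.86 ± 0.14 and Nfe2l2 rose by 0.62 ± 0.12 (limma adjusted p = 0.00154 and 0.00437). In repopulating microglia against bone-marrow macrophages Bach1 rose by 0.76 ± 0.13 and Nfe2l2 fell by 0.58 ± 0.11 (limma adjusted p = 0.00211 and 0.00464). These 4 calls held in all settings tried, with adjusted p up to 0.0377. Between repopulating and wild-type microglia the log2 folds were -0.10 ± 0.14 and 0.04 ± 0.12 (limma adjusted p = 0.682 and 0.857).

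Other NRF2 targets moved in both directions. Of 6 tested, 3 were higher and 2 lower in bone-marrow macrophages relative to wild-type microglia, or 83.3% beside 43.5% of all genes. Repopulating microglia against bone-marrow macrophages had 1 higher and 3 lower, or 66.7% beside 30.9%. Srxn1, which repairs oxidised peroxiredoxins, rose by 1.68 ± 0.31 in bone-marrow macrophages relative to wild-type microglia and fell by 1.78 ± 0.28 in repopulating microglia against bone-marrow macrophages (limma adjusted p = 0.00304 and 0.00166). Prdx1, a peroxiredoxin, fell by 1.29 ± 0.37 in repopulating microglia against bone-marrow macrophages (limma adjusted p = 0.0282), a call that ended without bone-marrow macrophage replicate 1, 2 or 3 (0.0874, 0.0819 and 0.0738, in a range of 0.000505 to 0.0874). The log2 fold of Prdx1 between repopulating and wild-type microglia was 0.14 ± 0.41 (limma adjusted p = 0.857), and it passed without repopulating replicate 3 (0.64, adjusted p = 0.0081, in a range of 0.0081 to 0.982). Of 8 heme synthesis genes, 1 was higher and 1 lower in each comparison with bone-marrow macrophages, and none was called in repopulating against wild-type microglia. That is 25.0% of these genes in each of the 2 comparisons with calls, below the 43.5% and 30.9% of all genes. Ncoa4, which delivers ferritin to the lysosome, averaged 1780 ± 431, 1833 ± 133 and 2161.5 ± 245 normalised counts in repopulating microglia, bone-marrow macrophages and wild-type microglia. Fbxl5, which tags IRP2 for destruction when iron is plentiful, averaged 401 ± 131, 388 ± 48.2 and 529.9 ± 4.6 in the same order. Neither passed in any comparison (limma adjusted p from 0.377 to 0.808 for Ncoa4 and from 0.188 to 0.994 for Fbxl5), though Fbxl5 passed for bone-marrow macrophages against wild type with only these groups fitted (log2 -0.45, adjusted p = 0.00822) and without repopulating replicate 3 (0.0123), in a range of 0.00822 to 0.39.

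**Figure D4:**
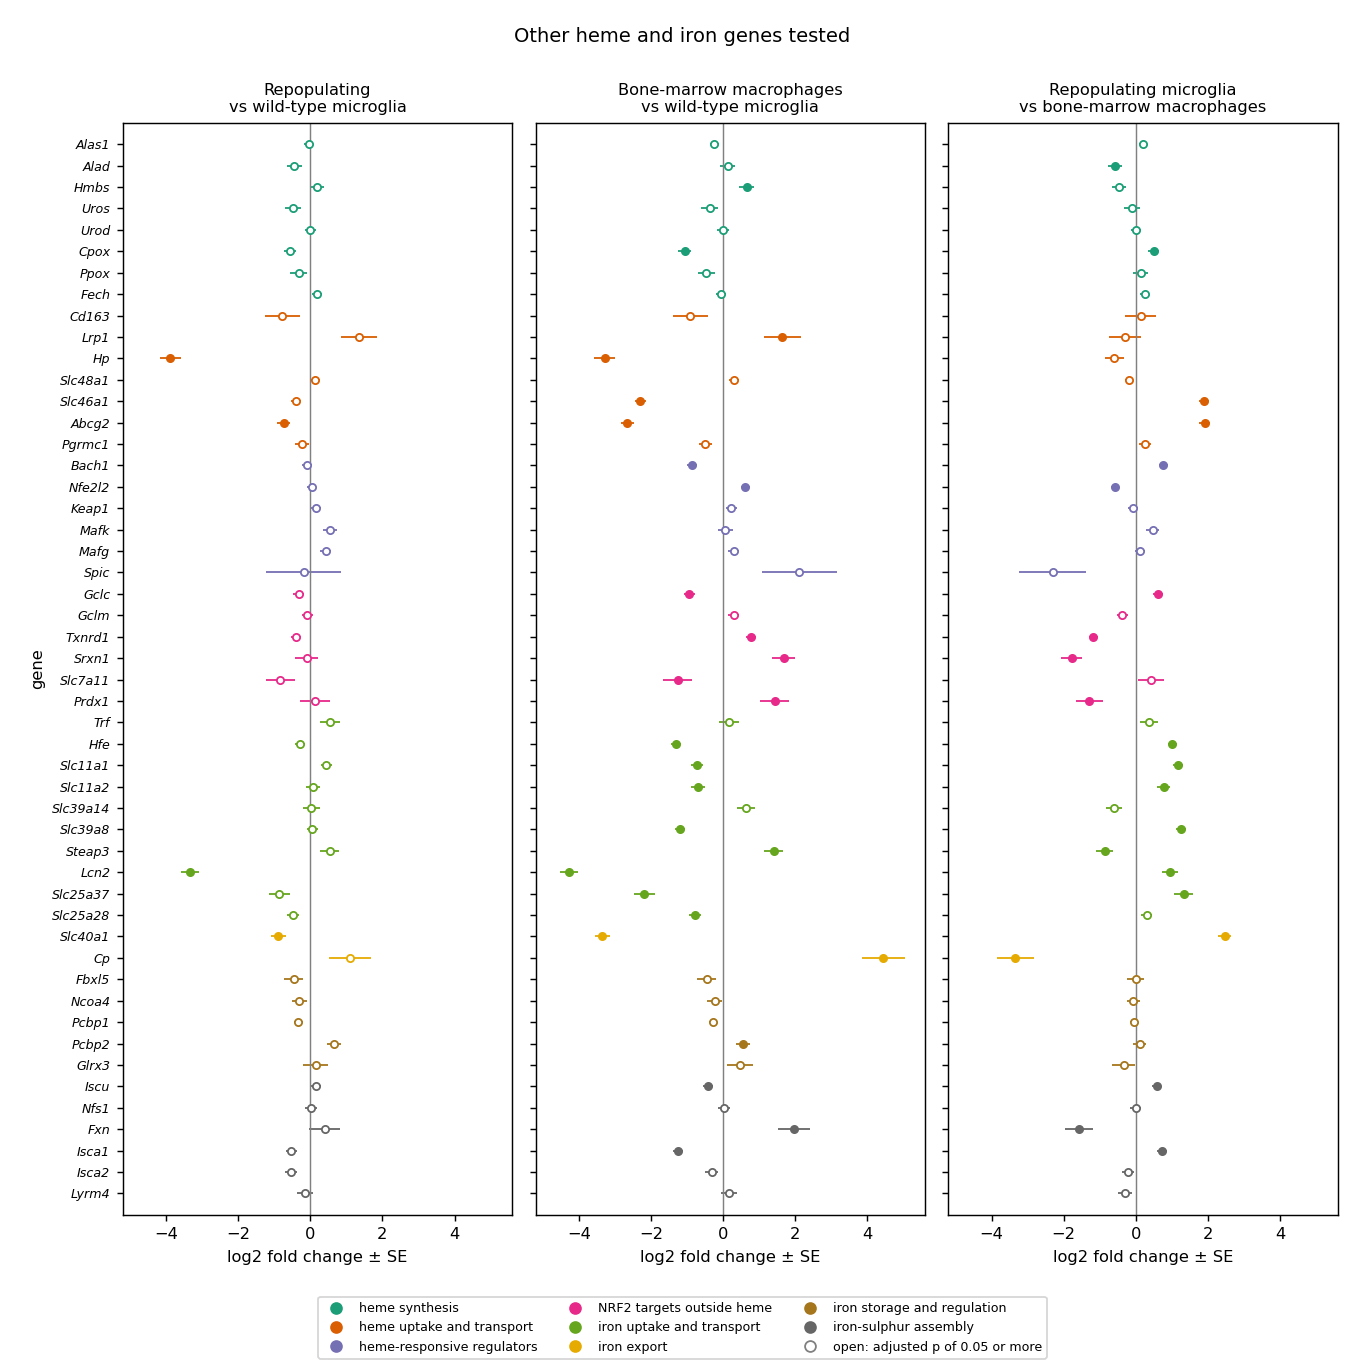
Log2 fold changes (horizontal axis, bars SE) of the 50 tested genes of the heme and iron list in each comparison, coloured by role and filled where the limma adjusted p was under 0.05. Relative to wild type, in repopulating microglia 4 points are filled, all below 0, against 27 for bone-marrow macrophages over wild type. These are 8.0% and 54.0% of the 50 genes, beside 8.61% and 43.5% of all genes tested.

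Over the 8 libraries, log2 levels of the 9 genes followed the groups to different degrees. Fth1 and Ftl1 correlated at r = 0.963, Hmox1 and Blvrb at 0.964, and Blvrb and Ftl1 at 0.956. Hmox2 ran against Blvra (r = -0.875), Blvrb (-0.721) and Hmox1 (-0.642). Tfrc followed no other member above r = 0.458. The closest genes by Pearson correlation were sought among 7357 tested genes with a mean of at least 100 normalised counts. Predicted models, Rik clones, small RNA genes and receptor segments were left out beforehand. The closest were Rps6ka3 (0.993), Ccdc109b (0.992) and Rap2b (0.988) for Hmox1, and C1qc (0.985), Csrnp1 (0.981) and Socs3 (0.979) for Hmox2. For Blvra they were Stom, AI662270 and Adam19 (0.986 to 0.988), and for Blvrb Cd36 (0.998), Gpr65 (0.997) and Acat1 (0.996). Fth1 lay closest to Tmem164 (0.998), Rpsa (0.991) and Spp1 (0.990), and Ftl1 to Pfdn1 (0.994), Txn2 (0.993) and Cotl1 (0.992). For Tfrc they were Med11 (0.944), Gtf2f2 and Polr2k, for Ireb2 Cul4b (0.982), Usp46 and Traf6, and for Aco1 Itgb1bp1 (0.939), St6galnac6 and Akt2. These values describe 8 points that share 3 groups and carry no test.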

How the data were processed

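The deposited table holds a signal: each gene count was divided by the authors by a size factor of its library, and is called a normalised count here. Whole reads were recovered from them: in each library 100% of values above 0 came out as whole reads within 0.01 reads. The submitters' processing notes name TopHat2 2.0.10, DESeq 1.14.0, HTSeq, Bowtie2 2.1.0.0 and the build mm10. The sources used here do not give their roles, the annotation or the strand setting. Per the labels' protocols, RNA with an integrity number above 8 was made into libraries with a TruSeq kit, version 2.

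Tests used log2(normalised count + 1) of genes that reached 10 normalised counts in 2 or more libraries, in 1 limma 3.58.1 fit over all 8 libraries (R 4.3.3) with a variance trend and no covariate, two-sided, adjusted by Benjamini-Hochberg within a comparison. Fold changes on this scale understate the change of low genes. Depth was 5918944 to 12476427 reads per library, and the members held 114 to 63119 reads each. Reads carried no molecular identifiers. Ratios were tested with exact permutation tests (SciPy 1.17.1). Alternatives were pseudocounts of 0.5 and 10, 2 other filters (none, 50), equal totals, TMM factors, only the groups compared, the replicate number as a block, no variance trend, each library left out, and count tests on the recovered reads with edgeR 4.0.16 and DESeq2 1.42.0. On the recovered reads edgeR called 969 genes between repopulating and wild-type microglia, 5040 between bone-marrow macrophages and wild type, and 3568 between repopulating microglia and bone-marrow macrophages. DESeq2 gave NA for 12 adjusted p-values between repopulating and wild-type microglia. A column was matched to a sample by name and replicate number, those named ctrl to wild-type microglia and those named mono by exclusion, and 0 columns were left unused.

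The 9 genes and all lists were chosen with earlier results of these data known. Of the other heme and iron genes, the text names the 3 highest and 3 lowest calls of each comparison whose higher group averaged 100 normalised counts or more, and Slc40a1, Bach1, Nfe2l2, Slc11a1, Ncoa4 and Fbxl5. Abcg2 was also named against wild type because only 4 genes were called there, and the regulators, Cp, Lrp1, Prdx1 and Slc46a1 in further comparisons, after their values were seen. Coordinates are 1-based, whole gene, from GENCODE vM21 (GRCm38, also called mm10). Lengths are exon unions, and levels per kilobase were ranked over the 10757 tested genes with a length. Figures were drawn with matplotlib 3.10.9.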

Additional observations from a re-analysis of the deposited data

How the results depend on the processing

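Of 27 member folds recomputed in up to 19 settings each, 450 values kept direction and side of the threshold, 27 fell short of it, 14 passed it anew and 22 changed sign. Of 36 results of other named genes, 635 were kept, 26 fell short, 11 passed anew and 12 changed sign. Causes were not tested.

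In repopulating against wild-type microglia, 1 of the 9 genes was called. The count was 0 with no filter, without a variance trend, with the replicate block or when only the 2 groups were fitted, and 2 at equal totals, with edgeR and with DESeq2. Leaving out libraries gave 0 to 4 there, 3 to 6 for bone-marrow macrophages against wild type (3 without wild-type replicate 1 or 2) and 2 to 5 for repopulating microglia against bone-marrow macrophages (5 without repopulating replicate 2). Of the other heme and iron genes, 9 were called in the first comparison at equal totals and with DESeq2, 2 with the replicate block, no variance trend or only the 2 groups, and 2 to 18 with libraries left out. Of all genes, 983 were called there, or 82 with only the 2 groups compared, 1625 with DESeq2 and 67 to 2969 with libraries left out. Leaving out libraries gave 2821 to 6992 calls for bone-marrow macrophages against wild type, against 4960, and 2212 to 5335 for repopulating microglia against bone-marrow macrophages, against 3526.

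Folds that changed sign had not passed the threshold as first fitted. For Tfrc they were 0.031 with the replicate block in repopulating against wild-type microglia, and -0.0034 with a pseudocount of 10 and -0.077 with DESeq2 in bone-marrow macrophages against wild type. For Ireb2 they were -0.018 at equal totals in repopulating against wild-type microglia, and -0.19 at equal totals and -0.0038 with TMM scaling against bone-marrow macrophages. Nfe2l2 turned to -0.068 at equal totals in repopulating against wild-type microglia, and Fbxl5 to 0.046 and Lrp1 to 0.0023 with DESeq2 in repopulating microglia against bone-marrow macrophages. With libraries left out, log2 folds in repopulating against wild-type microglia ran from -0.36 to 0.047 for Blvra, -0.58 to 0.40 for Tfrc, -0.0043 to 0.27 for Ireb2, -0.0087 to 0.12 for Nfe2l2 and -0.21 to 0.64 for Prdx1. In bone-marrow macrophages against wild type they ran from -0.49 to 0.49 for Tfrc and -0.040 to 0.14 for Ireb2. In repopulating microglia against bone-marrow macrophages they ran from -0.48 to 0.030 for Fth1, -0.25 to 0.088 for Tfrc, -0.049 to 0.25 for Ireb2, -0.11 to 0.011 for Aco1, -0.22 to 0.28 for Fbxl5, -0.22 to 0.14 for Ncoa4 and -0.93 to 0.13 for Lrp1. The log2 ratio of Blvra to Blvrb in the same comparison turned to 0.0087 with a pseudocount of 10 and ran from -0.10 to 0.054 with libraries left out. That of Ireb2 to Aco1 ran from -0.0099 to 0.23, and from -0.15 to 0.092 in repopulating against wild-type microglia.

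Replicate numbers are shared between groups, but same-numbered libraries did not deviate together (correlations of -0.24 to 0.244). Among the bone-marrow macrophages, only repopulating replicate 3 correlated best with its own number (0.133). Repopulating replicate 1 correlated best with bone-marrow macrophage replicate 2 (0.133), and replicate 2 with replicate 1 (0.149). With 2 wild-type libraries their deviations mirror each other, so the pairs with wild type are a weak check. With the replicate block, the Ftl1 fold in repopulating against wild-type microglia was 0.98 (adjusted p = 0.0721), Hmox2 in bone-marrow macrophages against wild type -0.38 (0.0568), Hmox1 in repopulating microglia against bone-marrow macrophages -0.54 (0.0369), and Slc40a1 and Abcg2 in repopulating against wild-type microglia -0.89 and -0.67 (0.0674 and 0.072); no other named call changed. Where a library left out leaves 1 wild-type library, that library is assumed to vary like the other groups. The 2 wild-type libraries limit both comparisons with them.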
